A study of Rattus norvegicus with 18 samples.

Results

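The EB effect shared by 3 brain regions was measured as 1 EB minus Oil difference per gene over 2 hypothalamic nuclei, arcuate (ARC) and paraventricular (PVN), and a hindbrain nucleus, that of the solitary tract (NTS), with region as a covariate. All 18 of the 18 samples entered, 9 EB-treated and 9 Oil-treated, with 3 of each in every region, and 23188 gene probe sets were tested. EB-treated rats were ovariectomized 90-day-old female Sprague-Dawley rats that were injected under the skin on Day 1 and Day 2 with EB, 10 µg each time, dissolved in oil (0.1 mL). EB stands for estradiol benzoate, an ester of estradiol, in the study's methods, while the labels write 17β-estradiol for it. Oil-treated rats were ovariectomized, of the same age, sex and strain, and received 0.1 mL of oil alone on the same days. Recovery after surgery lasted a week and bilateral tissue punches were taken on Day 4. A punch holds neurons, glia and vessels together, so fewer cells of a type and less RNA per cell cannot be told apart in these values. The 9 samples of a treatment came from 3 rats, so p-values over 18 arrays are too small. Samples carry here the replicate number that their label gives within a region and treatment, and the labels do not state whether a number marks the same rat in the 3 regions.

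Estradiol enters cells and binds nuclear estrogen receptors, which bind DNA at estrogen response elements or act through other transcription factors, and it also acts on receptors at the membrane. In the hypothalamus and hindbrain these receptors are known for their part in feeding, body weight, reproduction and the stress response. The progesterone receptor gene Pgr is the classic estrogen-induced gene of the hypothalamus, and S100g, which encodes the calcium-binding protein calbindin-D9k, is a classic one of uterus and pituitary.

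Signal intensities are log2 values, so a difference of 1 is a doubling. They ran between 3.07 and 17.91 over all arrays, array medians lay between 7.74 and 8, and 52.9% to 60.7% of genes per array read above background, taken as the median of that array's background probe sets. The background lay at 6.74 in ARC Oil 1 and between 7.37 and 7.6 in the other arrays. Marker genes went against the labels in several punches. Oxt, the oxytocin gene that marks the PVN, read 15.78, 16.10 and 12.36 in PVN EB 1 to 3 and 6.97, 14.87 and 6.92 in PVN Oil 1 to 3, and it read 14.52 in ARC Oil 1 against 7.02 to 7.92 in the other 5 ARC samples. The 16 measured markers of midbrain dopamine and mammillary neurons had a median EB minus Oil of -1.01 in the PVN, 0.88 in the ARC and -0.002 in the NTS. Results were therefore also computed without PVN Oil 1 and PVN Oil 3, and without ARC Oil 1. A letter in the sample code, whose meaning is not given in the sources used here, was A in all 9 EB samples. Among Oil samples it was A in ARC Oil 1 and PVN Oil 1 and B in the other 7. Letter and treatment thus overlap in most samples and coincide in the NTS. A fit with the letter therefore compares EB with Oil through ARC Oil 1 and PVN Oil 1 alone. Oxt went against the label in both.

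A common difference at an unadjusted p of 0.05 or less (limma, additive model of region and treatment) was found for 1808 genes, 7.80% of those tested, with 977 higher after EB (4.21%) and 831 lower (3.58%). Pigv alone passed adjustment over all genes, 0.00431% of those tested. The difference had the same sign in the 3 regions for 6498 genes (28.0%), and for 1085 (4.68%) the smallest regional difference was also at least 0.5 of the largest. Genes that met this size rule and had p of 0.05 or less are called shared here. There were 421 of them, 1.82% of those tested, with 240 higher after EB (1.04%) and 181 lower (0.781%). The median size of their common difference was 0.27, against 0.08 over all genes. A signal mean above background in at least 1 treatment was seen for 276 of them, and 118 were below background in all 18 samples. The treatment by region interaction passed adjustment for 0 genes and had an unadjusted p under 0.05 for 1120 (limma).

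The size rule admitted Prkg1, a cGMP-dependent protein kinase, with a smallest to largest ratio of 0.5001, Slc12a5, the neuronal potassium chloride cotransporter, with 0.5015, and Sema4a, a semaphorin, with 0.5018. It left out Zfpl1 with 0.4994, Nkd1 with 0.4988 and Tecpr1 with 0.4983. The common differences of these 6 genes were 0.48, 0.27 and 0.35 for Prkg1, Slc12a5 and Sema4a, and -0.20, -0.45 and 0.41 for Zfpl1, Nkd1 and Tecpr1. Genes on either side of the limit thus had differences of a like size.

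Pigv is an enzyme that adds a mannose to the glycosylphosphatidylinositol (GPI) anchor, by which proteins are held at the cell surface. It read 7.80, 7.90 and 7.71 in ARC EB 1 to 3, against 6.71, 7.52 and 7.27 in ARC Oil 1 to 3. In the PVN it read 8.14, 7.69 and 7.87 after EB, against 7.10, 7.04 and 7.01 after Oil. In the NTS it read 7.96, 8.07 and 8.10 after EB, against 7.39, 7.05 and 7.04 after Oil. The groups did not overlap in any region, and all 9 EB samples but 0 of 9 Oil samples exceeded the background median of their array. The common difference was 0.79 ± 0.098 (SE; 95% interval 0.58 to 1.00; n = 9 each; limma p 2.72e-07, adjusted p = 0.0063), with regional differences of 0.64, 0.85 and 0.89 in ARC, PVN and NTS. Since the Oil samples were below background, the rise was at least 1.45-fold. The unadjusted p stayed at 0.05 or less in 40 of 40 alternative settings and adjustment was passed in 30 of them, with adjusted p (limma) of 0.108 without PVN Oil 1 and PVN Oil 3, 0.106 with the sample-code letter as a factor and 0.323 over number means, within a range of 0.000647 to 0.664. Of 21 measured genes of GPI anchor synthesis, 2 were higher, Pigv and Pign (0.37), and 1 was lower, Pgap3 (-0.25), with a median of 0.01. Over all genes 4.21% were higher and 3.58% lower.

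**Figure D1:**
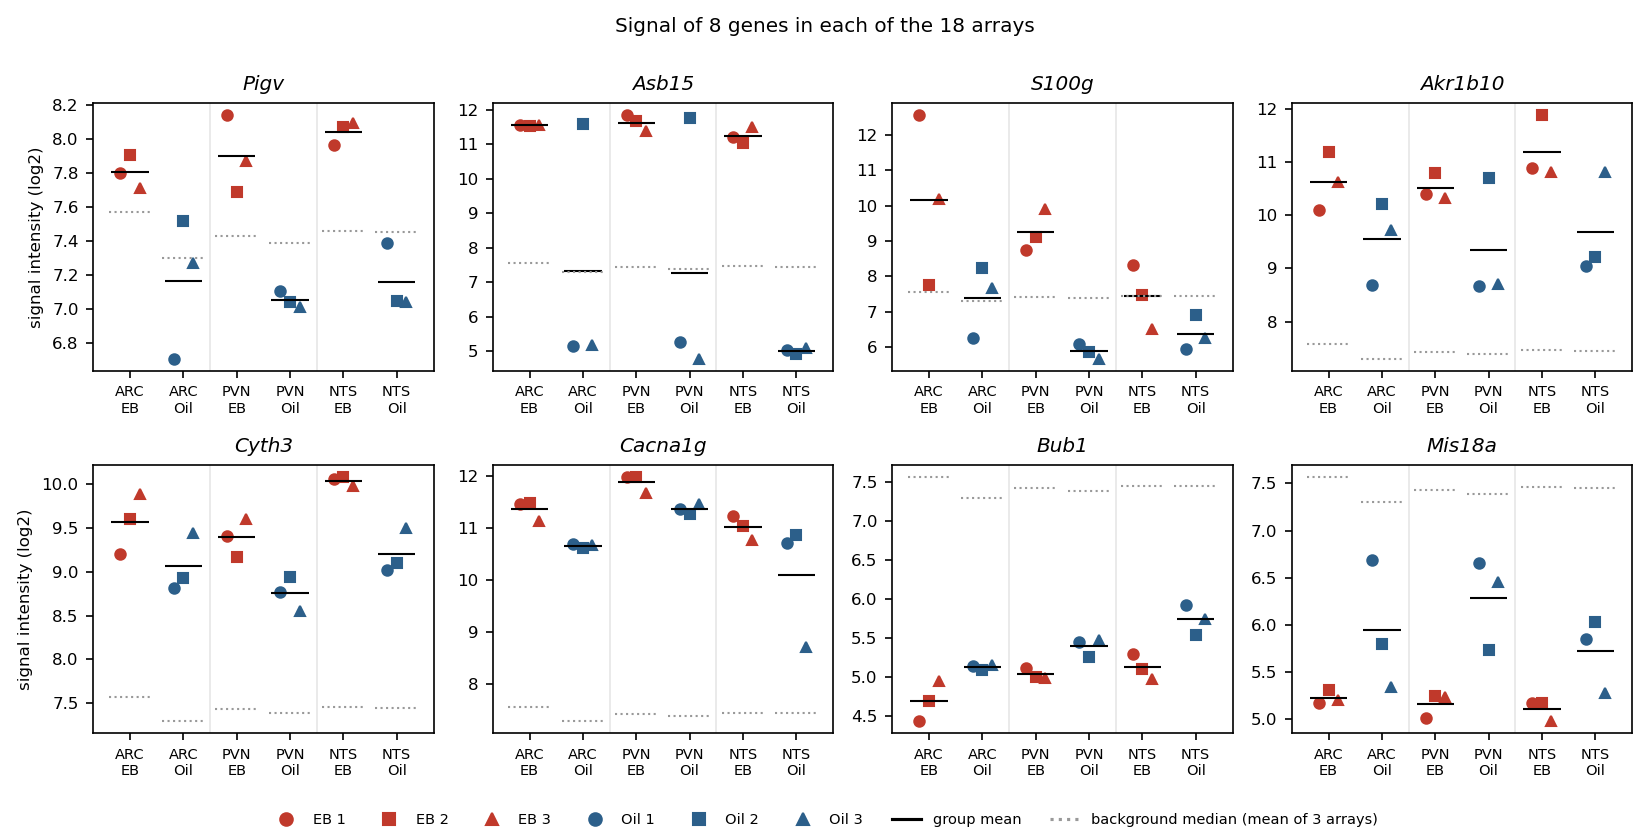
Log2 signal intensity (y axis) of 8 genes in each array, by region and treatment (x axis), with EB left of Oil and 1 marker shape per replicate number. Black lines are group means and dotted lines the mean background median of the 3 arrays; Pigv lies between 7.69 and 8.14 in EB samples and between 6.71 and 7.52 in Oil samples.

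None of the genes that follow passed adjustment over all genes in the additive model of region and treatment over all 18 samples. Asb15, a member of the ankyrin repeat and SOCS box family best known in muscle, had the widest common difference, 4.94 ± 0.886 (SE, n = 9 each; limma p 2.97e-05, adjusted p = 0.115). Its signal lay between 11.02 and 11.84 in all 9 EB samples. In Oil samples it was 5.15, 11.60 and 5.19 in the ARC, 5.27, 11.76 and 4.78 in the PVN and 5.03, 4.91 and 5.10 in the NTS. Oil 2 was therefore at the EB level in the ARC and PVN and at the level of the other Oil samples in the NTS. The adjusted p (limma) ran between 3.38e-14 and 0.912 over the alternative settings, the lowest being without 1 replicate number in all regions. In all of these settings the unadjusted p stayed at 0.05 or less. In the study's own test within the NTS, Asb15 was the only gene past correction for false discovery. Of 18 measured genes of the ASB family 1, Asb15, was higher and 0 were lower. Over all genes 4.21% were higher and 3.58% lower. The 3 measured genes on each side of Asb15 on chromosome 4 differed by -0.16 to 0.15.

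Akr1b10, an aldo-keto reductase that reduces aldehydes and retinal, was higher by 1.25 ± 0.309 (SE, n = 9 each; limma p 0.00078, adjusted p = 0.323), a 2.38-fold difference. The signal was 10.11, 11.18 and 10.62 in ARC EB samples against 8.70, 10.21 and 9.73 in ARC Oil samples. In the PVN it was 10.41, 10.79 and 10.33 after EB against 8.67, 10.70 and 8.70 after Oil. In the NTS it was 10.90, 11.89 and 10.81 after EB against 9.05, 9.21 and 10.81 after Oil. The ARC and PVN samples of Oil 2 and the NTS sample of Oil 3 reached the EB range and the other 6 Oil samples lay below 10. Without each replicate number in turn the common difference was 0.89 to 1.51. LOC100910708, for which no function is given in the tables used here, differed by 1.16 ± 0.322 (SE, n = 9 each; limma p 0.00209, adjusted p = 0.395). It reached its EB range in the same 3 Oil samples, with 11.18, 11.74 and 11.96, and also in ARC Oil 3, with 11.02. Among the 18 measured aldo-keto reductases 2 were higher, Akr1b10 itself and Akr1b7, and 1 lower, Akr1c2. Over all genes 4.21% were higher and 3.58% lower. Akr1b7 was above background in 1 EB sample and 0 Oil samples, and Akr1c2 in 0 of either. The neighbours of Akr1b10 on chromosome 4 were Akr1b7 with 0.38 (limma p 0.036), Akr1b8 with 0.13 and Akr1b1 with -0.01.

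A stretch before the start of Akr1b10 is shown because, of the genes higher at p of 0.05 or less and above background in all 18 samples, it had the largest common difference. The 6 capitals mark 1 of 2 half-sites of the estrogen response element found there. It spans chr4:64005487-64005586 on the plus strand of GRCr8 (RefSeq), and the capitals begin 98 bases before the start.
Akr1b10: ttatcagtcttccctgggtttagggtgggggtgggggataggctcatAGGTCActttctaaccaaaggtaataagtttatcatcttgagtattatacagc
The half-site AGGTCA, on either strand, was present within 250 bases before the start in 8.7% of the 230 shared genes matched by symbol to the promoter table and in 11.8% of the 12024 measured genes matched. The full palindromic estrogen response element, GGTCA and TGACC with 3 bases between them, was found in 0 of the 230 shared genes and in 3 of all those matched. Half-sites were thus no more frequent before shared genes than before all genes, and a match is a description of letters only.

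Several further genes had common differences of 0.56 or more with the same sign in the 3 regions. Cyth3, a guanine nucleotide exchange factor for ARF proteins, ran 9.17, 9.61 and 10.08 (lowest, median, highest) in EB samples against 8.55, 8.94 and 9.50 in Oil samples, with a common difference of 0.66 (limma p 1.76e-05, adjusted p = 0.11) and regional differences of 0.50, 0.64 and 0.83. Galnt16, an enzyme that starts O-linked glycosylation, ran 11.14, 12.06 and 12.92 after EB against 10.37, 11.50 and 12.20 after Oil, a difference of 0.69. Prodh, the mitochondrial proline dehydrogenase, ran 9.04, 9.70 and 10.04 after EB against 8.83, 9.13 and 9.23 after Oil, a difference of 0.56. These ranges overlapped over all samples. Cyth3 read higher in every EB sample than in any Oil sample of the PVN and of the NTS, and the ARC groups overlapped.

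Abca7, a lipid transporter of the ABC family, differed by 0.61 and Clic2, a chloride intracellular channel protein, by 0.70. Clic2 was lowest in PVN Oil 2, with 6.77, and so was Vwf, the von Willebrand factor of endothelium, with 5.04. The mean of the 17 measured endothelial and mural genes ran between 9.09 and 9.90 in EB samples and between 7.65 and 10.03 in Oil samples, and averaged -0.95 relative to the region mean in Oil 2. Among the 17, 1 was higher (5.88%, against 4.21% of all genes), Vwf (0.70, limma p 0.00467). Vwf read above background in 1 EB sample and 1 Oil sample, and its part in the difference of Clic2 was not tested. Of 38 genes of the ABC family 5 were higher (13.2%, against 4.21% of all genes), namely Abca7, Abcc5, Abcb8, Abcg1 and Abcc10 (0.21 to 0.61), and 0 lower. LOC102551177 differed by 0.82. Tns1, a focal adhesion protein, differed by 0.56 and missed p of 0.05 without 5 of the 6 replicate numbers.

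**Figure D2:**
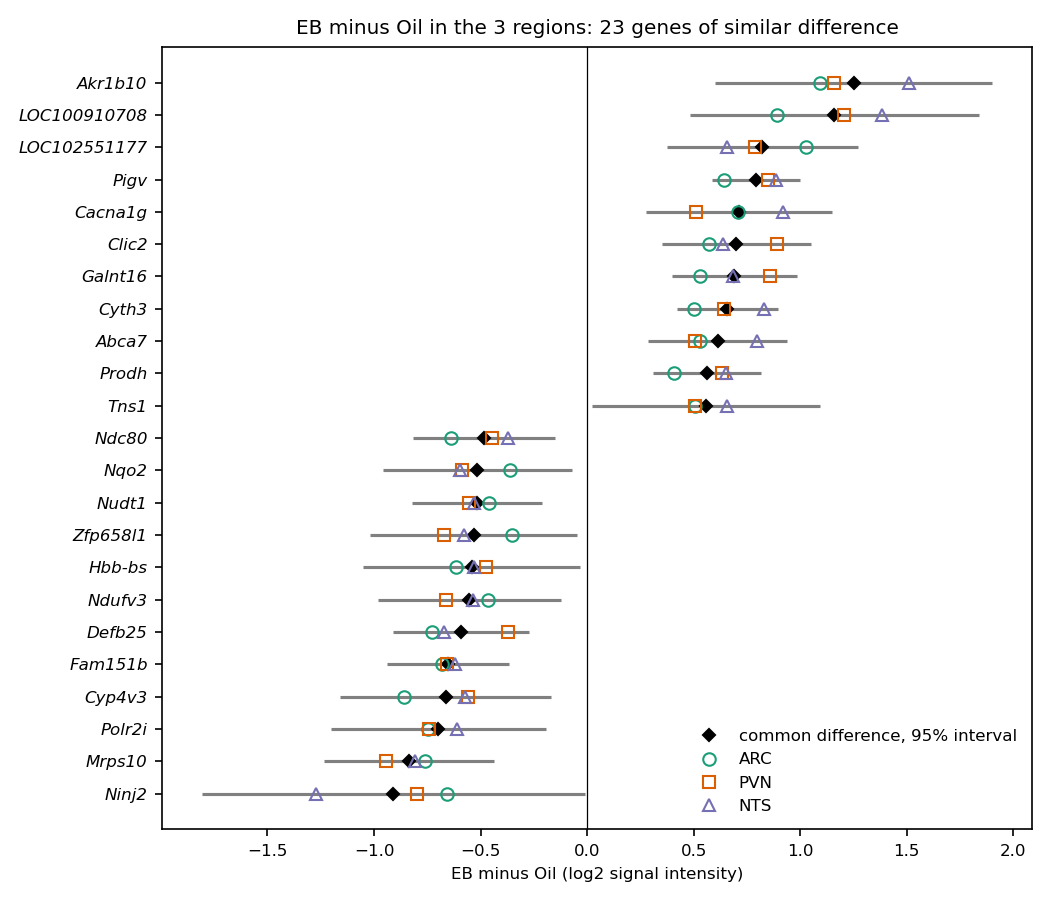
EB minus Oil differences in log2 signal intensity (x axis) of 23 shared genes (y axis), as the common difference with its 95% interval (black) and in ARC, PVN and NTS (open symbols). Asb15, at 4.94, is outside the scale and not drawn; Fam151b has regional values of -0.68, -0.66 and -0.62.

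Genes whose EB and Oil samples did not overlap in any of the 3 regions numbered 18 (0.0776% of those tested), 8 higher (0.0345%) and 10 lower (0.0431%). Besides Pigv the higher ones included Kmt5c, a histone methyltransferase of constitutive heterochromatin. It read 7.98, 7.84 and 7.88 in ARC, 6.92, 7.53 and 7.58 in PVN and 7.10, 7.20 and 7.28 in NTS EB samples. Oil samples read 7.32, 7.51 and 7.07 in ARC, 6.41, 6.90 and 6.80 in PVN and 6.92, 6.70 and 6.62 in NTS. The common difference was 0.56 (limma p 2.09e-05, adjusted p = 0.11), and 5 EB samples and 1 Oil sample were above background.

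Tecpr1, which takes part in the fusion of autophagosomes with lysosomes, differed by 0.41 and Fam20c, a Golgi kinase of secreted proteins, by 0.39, both above background in all 18 samples. Gnaz, an inhibitory G protein subunit of neurons, differed by 0.16 and Rilp, a lysosomal trafficking protein below background in all samples, by 0.30. Lower without overlap were Psmg4, a chaperone of proteasome assembly (-0.43), and Sdhaf2, an assembly factor of succinate dehydrogenase (-0.22), besides the mitotic genes Bub1 and Mis18a described below.

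Pgr was higher by 0.63 ± 0.157 (SE, n = 9 each; limma p 0.000851, adjusted p = 0.346). It read 9.65, 8.95 and 9.10 in ARC EB samples against 7.82, 8.57 and 8.73 in ARC Oil samples. In the PVN it read 9.61, 9.22 and 9.86 after EB against 8.70, 8.91 and 8.88 after Oil, and in the NTS 8.89, 8.54 and 8.71 after EB against 8.62, 7.86 and 8.79 after Oil. The groups were apart in the ARC and PVN and overlapped in the NTS, where the difference was 0.29. S100g was higher by 2.41 (limma p 0.000198, adjusted p = 0.196), with 2.78, 3.38 and 1.07 in ARC, PVN and NTS, so that it had the same sign in each region and missed the size rule. Its samples read 12.56, 7.76 and 10.20 in ARC EB against 6.27, 8.25 and 7.67 in ARC Oil, and the PVN groups did not overlap. Of 18 measured estrogen-induced genes of brain and pituitary 3 were higher (16.7%, against 4.21% of all genes), Pgr, S100g and Npy1r, and 0 lower. The list's median was 0.22, against -0.002 over all genes. Its regional medians were -0.05, 0.38 and 0.13 in ARC, PVN and NTS, and 0 of the 18 were shared genes. From these same arrays the study had reported S100g higher after EB in the ARC and Npy1r in the PVN. This and the other lists were written with earlier results of these data known, so their shares are descriptions. Npy1r, a neuropeptide Y receptor, differed by -0.10, 1.15 and 0.40 in ARC, PVN and NTS, so its sign was not shared, and its common difference of 0.49 missed p of 0.05 without 4 of the 6 replicate numbers. Of 17 measured estrogen-induced genes of uterus and mammary gland 0 were higher and 0 lower. Esr1, the gene of estrogen receptor alpha, read 6.90 to 10.18 in EB samples and 6.84 to 11.06 in Oil samples. Its common difference of -0.13 (limma p 0.763) joined opposite signs, with -1.33, 1.06 and -0.13 in ARC, PVN and NTS.

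Of 15 estrogen and progesterone receptors with coregulators 3 were higher (20%, against 4.21% of all genes) and 0 lower. Pgr, Ncor1 (0.26), a corepressor, and Pgrmc2 (0.13, limma p 0.0486), a membrane progesterone-binding protein, were the 3. All 3 had the same sign in the 3 regions, but 0 of them were shared genes. Without each replicate number in turn, the count of higher members ran between 1 and 3. Regional medians of this list were 0.006, 0.204 and 0.026 in ARC, PVN and NTS. Among 18 glucocorticoid response genes 3 were higher (16.7%), the transcription factor Zbtb16 (0.51, limma p 0.000215), the kinase Sgk1 (0.62) and the receptor cochaperone Fkbp5 (0.34), and 0 lower. Zbtb16 differed by 0.74, 0.37 and 0.43 in ARC, PVN and NTS, while Fkbp5 differed by -0.02, 0.27 and 0.77. Of 22 immediate early genes 0 were higher and 0 lower.

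Of 21 calcium channel and calcium-binding genes 6 were higher (28.6%, against 4.21% of all genes) and 0 lower, with a median of 0.23. The count was 4 without PVN Oil 1 and PVN Oil 3 and 2 without the PVN. They were Cacna1a, Cacna1c, Cacna1e and Cacna1g, pore-forming subunits of voltage-gated calcium channels, together with S100g and the kinase subunit Camk2b. Cacna1g, which forms a low-voltage-activated T-type channel, read 11.46, 11.49 and 11.15 in ARC EB against 10.69, 10.62 and 10.67 in ARC Oil samples. In the PVN it read 11.98, 11.98 and 11.69 after EB against 11.37, 11.28 and 11.47 after Oil, and in the NTS 11.24, 11.05 and 10.78 after EB against 10.71, 10.88 and 8.72 after Oil. The ARC and PVN groups did not overlap, and NTS Oil 3 stood far below the other NTS samples. The common difference was 0.71 (limma p 0.00311, adjusted p = 0.395), and 0.50 without Oil 3 in all regions. Of the 9 pore-forming subunits measured 4 were higher, but 2 without PVN Oil 1 and PVN Oil 3 and 1 without the PVN.

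The shares that follow stand against 4.21% of all genes higher and 3.58% lower. Of 13 GABA receptor subunits 4 (30.8%) were higher (Gabra2, Gabrb1, Gabrg1 and Gabrd, 0.23 to 0.41, Gabrd below background in all samples) and of 20 glutamate receptor subunits 3 (15%; Grin2b, Grik5 and Grm7, 0.28 to 0.39), with 0 lower in either group. Gabra2 differed by 0.15, 0.88 and 0.19 in ARC, PVN and NTS, and Grin2b by -0.11, 0.72 and 0.47, so that none of these but Grik5 met the size rule. Over the alternative settings the higher count ran between 0 and 6 for the GABA subunits and between 1 and 4 for the glutamate subunits. Of 20 semaphorins and plexins, guidance cues and their receptors, 4 were higher (20%; Sema4a, Sema4b, Sema4f and Plxna3, 0.24 to 0.36) and 0 lower. Of 44 neuropeptide and metabolic hormone receptors 6 were higher (13.6%) and 1 lower (2.27%), and of 22 potassium channels 2 were higher (9.09%) and 0 lower.

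**Figure D3:**
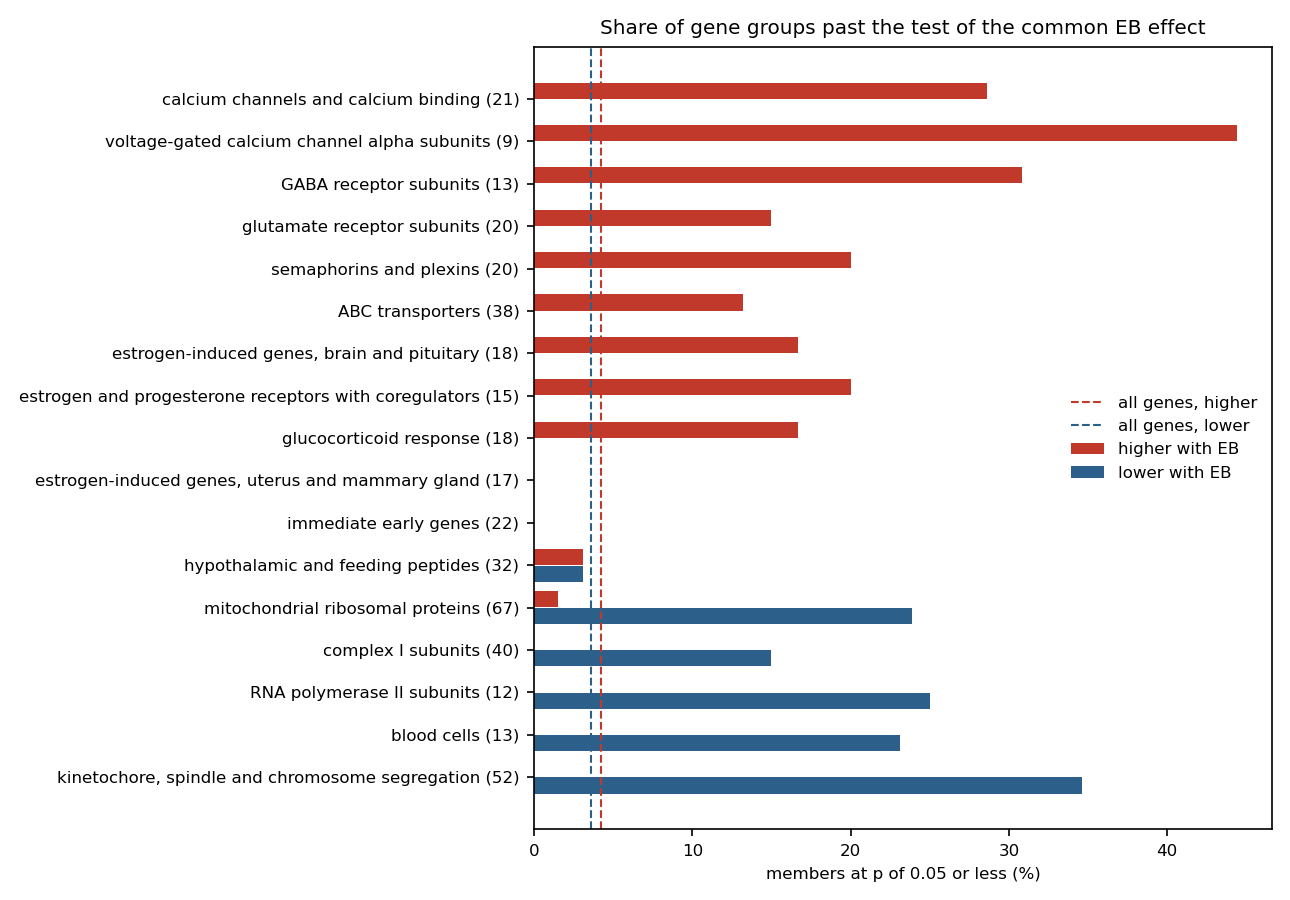
Share of measured members at p of 0.05 or less for the common effect (x axis, percent) in 17 gene groups (y axis, number measured in brackets), higher (red) and lower (blue) after EB. Dashed lines give the shares over all genes, 4.21% higher and 3.58% lower; the longest blue bar is that of kinetochore and spindle genes, 34.6%.

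Lower after EB were genes of the kinetochore and spindle, the apparatus that holds and separates chromosomes in mitosis. This list was written after values had been seen, so its count is a description. Of 52 measured members 18 were lower (34.6%, against 3.58% of all genes) and 0 higher, with a median of -0.15 and regional medians of -0.26, -0.11 and -0.12 in ARC, PVN and NTS. Of the 18, 17 had the same sign in the 3 regions and 7 were shared genes. The list's mean relative to the region mean was -0.09, -0.06 and -0.15 in EB 1 to 3 and 0.07, 0.11 and 0.12 in Oil 1 to 3. Readings were dim: 9 of the 18 were below background in all 18 samples and 1, Bub3, was above it in all. Adjusted p ran between 0.11 and 0.631 (limma).

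Bub1, a kinase of the spindle checkpoint, read 4.43, 4.69 and 4.94 in ARC EB against 5.14, 5.08 and 5.15 in ARC Oil samples. In the PVN it read 4.98 to 5.11 after EB against 5.44, 5.26 and 5.47 after Oil, and in the NTS 5.29, 5.10 and 4.97 after EB against 5.93, 5.54 and 5.75 after Oil. The groups did not overlap in any region, the common difference was -0.47 ± 0.080 (SE, n = 9 each; limma p 1.54e-05, adjusted p = 0.11), and all 18 readings were below background. Mis18a, which helps load the centromeric histone variant Cenpa, ran 4.98, 5.17 and 5.31 (lowest, median, highest) after EB against 5.28, 5.84 and 6.68 after Oil, also all below background. Its difference was -0.81 (limma p 0.000113, adjusted p = 0.196). Tpx2, a spindle assembly factor, differed by -0.58, Cdca3 by -0.53, Ndc80, which links kinetochores to microtubules, by -0.49 and Nusap1 by -0.41. Bub3, the partner of Bub1, ran 11.85, 11.93 and 12.21 after EB against 11.82, 12.22 and 12.59 after Oil and differed by -0.27 (limma p 0.00166). The count of lower members was 14 without PVN Oil 1 and PVN Oil 3, 8 without the ARC, 8 with the sample-code letter as a factor and 2 of the 9 members that passed a filter on background.

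**Figure D4:**
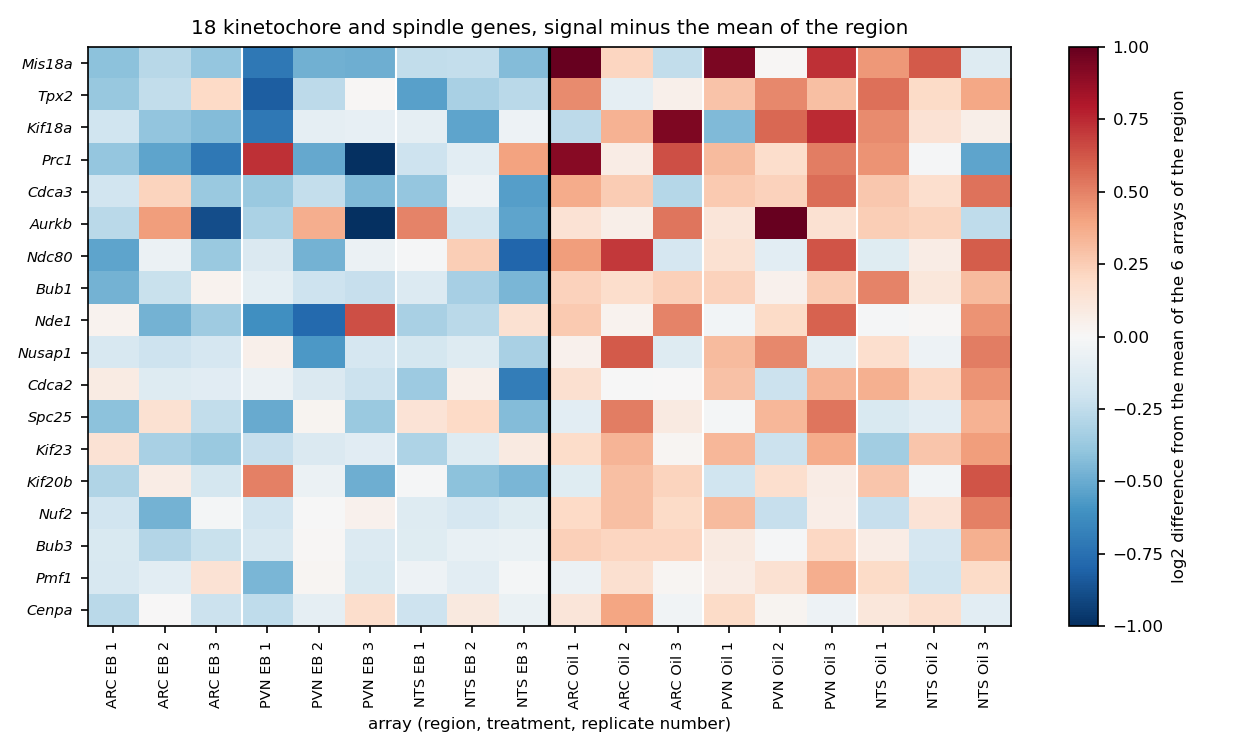
Log2 signal intensity of the 18 kinetochore and spindle genes at p of 0.05 or less (rows), minus the mean of the 6 arrays of the region, in each array (columns), with EB left of the black line. Colours end at 1 in either direction; Bub1 is below its region mean in most EB arrays and above it in all Oil arrays.

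Stretches before the start of 3 of these genes are shown because they hold the CHR element (cell cycle genes homology region), at which mitotic genes are known to be repressed outside division. The 6 bases TTTGAA are in capitals and begin 79, 116 and 57 bases before the start of Kif23, Cenpa and Spc25. In GRCr8 (RefSeq) they lie at chr8:71320611-71320710, chr6:31431616-31431715 and chr3:74396723-74396822, all on the minus strand.
Kif23: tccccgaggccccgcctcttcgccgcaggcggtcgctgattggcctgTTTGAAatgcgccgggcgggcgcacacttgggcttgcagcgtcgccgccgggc
Cenpa: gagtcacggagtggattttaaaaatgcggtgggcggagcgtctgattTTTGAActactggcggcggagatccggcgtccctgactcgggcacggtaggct
Spc25: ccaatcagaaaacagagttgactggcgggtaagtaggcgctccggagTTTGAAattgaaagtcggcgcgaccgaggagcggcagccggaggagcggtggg
Kif23, a kinesin of the central spindle, differed by -0.31, Cenpa by -0.18 and Spc25, a partner of Ndc80, by -0.32. TTTGAA, on either strand within 250 bases before the start, was present in 39.5% of the 43 list members matched, in 6 of the 15 lower ones matched (40%) and in 14% of the 12024 measured genes matched. The CCAAT box, also on either strand, was present in 58.1%, 60% and 35.2% of the same groups. The lower members held these letters about as often as the whole list. TTTGAA was not found within 250 bases before the start of Bub1, Mis18a, Cdca3, Ndc80, Nusap1 or Bub3.

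Fam151b had an even difference across regions, -0.65 ± 0.136 (SE, n = 9 each; limma p 0.000151, adjusted p = 0.196), with -0.68, -0.66 and -0.62 in ARC, PVN and NTS. It read 11.10, 10.79 and 10.83 in ARC EB against 11.30, 11.52 and 11.93 in ARC Oil samples, and the groups did not overlap there but did in the PVN and NTS. Nudt1, which hydrolyses oxidized purine nucleotides, ran 8.18, 8.75 and 9.39 (lowest, median, highest) after EB against 8.61, 9.24 and 10.01 after Oil and differed by -0.52. Defb25, a beta-defensin, differed by -0.59 with 1 EB sample and 5 Oil samples above background.

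Several lower shared genes followed the replicate number across regions. Mrps10, a protein of the small mitochondrial ribosomal subunit, read 9.70, 11.05 and 9.85 in ARC, 9.72, 10.70 and 9.63 in PVN and 10.09, 10.83 and 9.66 in NTS EB samples. Oil samples read 11.02, 10.92 and 10.94 in ARC, 10.90, 10.94 and 11.05 in PVN and 11.22, 11.06 and 10.72 in NTS. EB 1 and EB 3 were thus low in each region while EB 2 stood at the Oil level, and the common difference was -0.84 (limma p 0.000355, adjusted p = 0.257). Ndufv3, an accessory subunit of respiratory complex I, was low in EB 1 alone, with 13.63, 13.30 and 13.25 in ARC, PVN and NTS against 14.37 to 14.94 in the other samples of all regions. Its difference of -0.55 became -0.16 without EB 1. Polr2i, a subunit of RNA polymerase II, was lowest in EB 2, with 9.10, 9.46 and 8.76, and its difference of -0.70 became -0.30 without EB 2. Cyp4v3, a fatty acid hydroxylase, was lower in EB 2 and EB 3 only, and differed by -0.66.

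More than 80% of the spread within groups lay between replicate numbers for 290 genes, 16 of them shared genes, where the median over all genes was 36%. Over the 6 means per replicate number, which leave 3 values a treatment, 237 of the 421 shared genes kept p of 0.05 or less (limma), and the EB and Oil means did not overlap for 287, where 11.3% of all genes tested had means without overlap. Without each of the 6 numbers in turn, 141 of the 421 kept p of 0.05 or less every time, 82 higher and 59 lower. The 421 had been chosen on the same values, so these counts are descriptions.

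Some of these 141 genes were smaller in size but even across regions, and the ones named here were picked after their values were seen. Agap2, a GTPase-activating protein of neurons, was higher by 0.34 (limma p 0.00195), with 0.34, 0.34 and 0.34 in ARC, PVN and NTS. Rapgef3, a cAMP-activated exchange factor for Rap proteins, was higher by 0.55 (limma p 0.000178), with 0.71, 0.52 and 0.41. Kcnt1, a sodium-activated potassium channel, was higher by 0.42 (limma p 0.000211), with 0.55, 0.38 and 0.32. These 3 genes thus differed by a like amount in each region, or most in the ARC. Lrp4, a receptor of the synapse, was higher by 0.29, Hbegf, a ligand of the epidermal growth factor receptor, by 0.37, Myt1, a zinc finger transcription factor of neural cells, by 0.32 and Cpt1c, the neuronal carnitine palmitoyltransferase, by 0.29. On the lower side, Me1, the cytosolic malic enzyme, differed by -0.31 with -0.26, -0.38 and -0.28 in ARC, PVN and NTS, and Polr1h, a subunit of RNA polymerase I, by -0.29 with -0.28, -0.30 and -0.27. None of these passed adjustment over all genes.

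**Figure D5:**
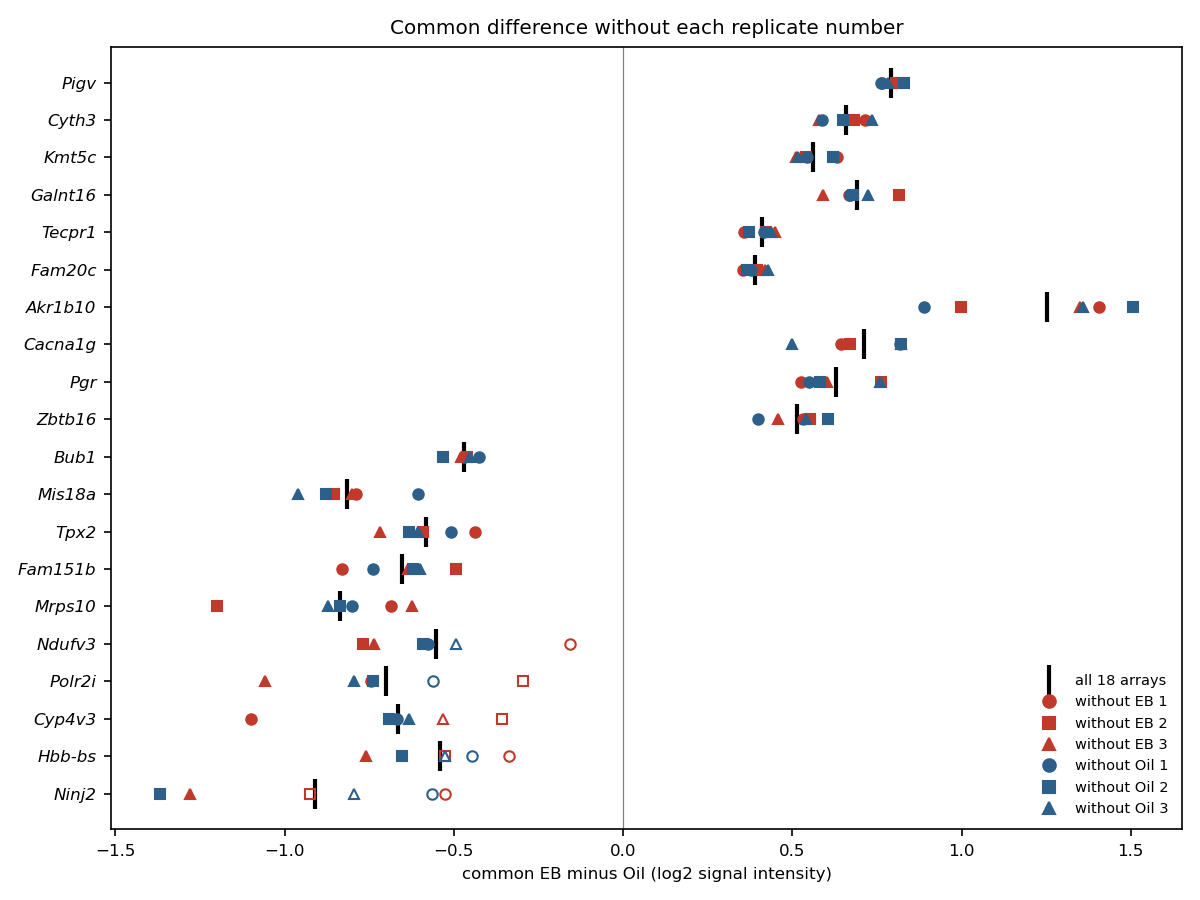
Common EB minus Oil difference in log2 signal intensity (x axis) of 20 genes (y axis) over all 18 arrays (black bar) and without each replicate number of a treatment in all regions (symbols, filled where p is 0.05 or less). Pigv stays between 0.76 and 0.83, while Ndufv3 is at -0.16 without EB 1 and Polr2i at -0.30 without EB 2.

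Of 67 mitochondrial ribosomal proteins 16 were lower (23.9%, against 3.58% of all genes) and 1, Mrpl52, was higher (0.33), with a median of -0.10 and regional medians of -0.11, -0.22 and -0.01 in ARC, PVN and NTS. Apart from Mrps10 the lower ones differed by little, as Mrps22 by -0.29, Mrpl47 by -0.29 and Mrpl12 by -0.30. Without PVN Oil 1 and PVN Oil 3 the count of lower members was 7, and without the PVN it was 5. Of 40 complex I subunits and assembly factors 6 were lower (15%, against the same 3.58%) and 0 higher, and without PVN Oil 1 and PVN Oil 3 there were 0 lower and 1 higher. Of 12 genes of the Polr2 family of RNA polymerase II 3 were lower (25%, also against 3.58%), Polr2f, Polr2i and Polr2d.

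Hbb-bs, a beta globin, differed by -0.54 (limma p 0.0381, adjusted p = 0.624) and is a marker of red cells in the punch. Of 13 measured blood cell genes 3 were lower (23.1%, against 3.58% of all genes), Hbb-bs, Alas2 of heme synthesis (-0.43) and Camp, a granulocyte peptide (-0.52), and 0 higher. Camp was below background in all samples, and Alas2 was above it in 2 EB and 8 Oil samples. The globins Hba-a1, Hbb and Hbb-b1, above background in all samples, missed p of 0.05 (-0.17, -0.23 and -0.31). The list's mean ran between 7.62 and 8.86 in EB samples and between 7.59 and 8.84 in Oil samples. Hbb-bs missed p of 0.05 without 4 of the 6 replicate numbers. Ninj2, a cell adhesion protein, ran 6.23, 8.93 and 9.99 (lowest, median, highest) after EB against 7.06, 9.96 and 11.72 after Oil, and its difference of -0.91 (limma p 0.0473) likewise missed p of 0.05 without 4 of the 6. Nqo2, a quinone reductase, differed by -0.51 and Zfp658l1, a zinc finger gene, by -0.53.

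The 12 shared genes of largest difference in each direction and the genes with a symbol that had no overlap in any region made 34 genes. They were chosen on the same arrays, so a sign kept in the settings below was favoured by that choice and is no independent support. All 34 kept their sign without PVN Oil 1 and PVN Oil 3 and 29 kept p of 0.05 or less, the exceptions being Ninj2, Ndufv3, Hbb-bs, Zfp658l1 and Nqo2. Without ARC Oil 1, 34 kept their sign and 31 that p, the exceptions being Ninj2, Hbb-bs and Nqo2. The fit with the sample-code letter as a factor draws its EB difference from ARC Oil 1 and PVN Oil 1 and cannot check the NTS. In it 33 kept their sign, Tns1 being the exception, and 23 kept that p. The exceptions were Cacna1g, Clic2, Tns1, Cyp4v3, Fam151b, Ndufv3, Hbb-bs, Zfp658l1, Ndc80, Gnaz and Sdhaf2, and the part of the letter in these differences was not tested.

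Genes with p of 0.05 or less for the common effect of 2 regions, and the same sign in both, were compared with their sign in the third region. That choice did not use the third region. For genes chosen in PVN and NTS 55.2% kept the sign in the ARC, against 50.3% of all genes of equal sign in PVN and NTS. In the PVN 67.3% kept the sign against 58.9% of all such genes, and in the NTS 60.1% against 53.1%. These shares are descriptions, since the regions share rats and genes are not independent. By the thresholds of the study's methods, p of 0.05 or less with a fold change of 2 or more, 10 genes passed (0.0431% of those tested). Asb15, S100g, Pmch, Akr1b10 and LOC100910708 were higher and 5 LOC genes with no function given in the tables used here were lower, by -1.10 to -1.52. None of the 5 met the size rule and 2 of them, LOC102552104 and LOC102555039, had identical values. Pmch, the precursor of melanin-concentrating hormone, differed by 1.73 (limma p 0.0298), with 0.58, 2.56 and 2.05 in ARC, PVN and NTS.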

How the data were processed

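The deposited values are log2 signal intensities per probe set, which the authors had made by an array service: scanner files of Rat Clariom S Pico arrays were corrected for background, then normalized, then put on the log2 scale. Per the labels, the Transcriptome Analysis Console was used. Of 24834 probe sets, the 1646 controls were left out. A model of region and treatment over 18 arrays gave EB minus Oil (limma 3.58.1, lmFit and eBayes, with statmod 1.5.0 under R 4.3.3), with Benjamini-Hochberg adjustment over 23188 genes. Depth does not apply to arrays, and their number limits the precision. The background is the median of 23 background probe sets per array, and a group below it takes that median in a fold given as at least. Symbols came from the platform annotation for 15049 probe sets and from the study's gene list for 56, with 11 of several symbols left unnamed and 8084 without one. Gene families were taken by symbol. Genes named are Pigv as the only one past adjustment, the 12 shared genes with the largest difference in each direction, up to 10 without overlap in each direction, in every list the 3 genes of smallest p, and the estrogen-induced genes; others were chosen after their values were seen. The members and lists were chosen with earlier results of these data known. Steps were tested on simulated data. Figures used Python 3.11.15 and matplotlib 3.10.9.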

Additional observations from a re-analysis of the deposited data

How the results depend on the processing

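The counts were 421 shared genes, 10 genes with a fold change of 2 or more, 1 past adjustment and 18 without overlap (limma for the first 3). Shared genes numbered 805 with the smallest regional difference at least 0.333 of the largest, 130 at 0.7 of it and 1601 for equal sign only. Over number means there were 254 shared genes and 0 past adjustment, where 1239 genes had an unadjusted p of 0.05 or less. Among probe sets above background there were 279 shared genes and 10 without overlap. With the sample-code letter as a factor 63 genes had a fold change of 2 or more and 247 were shared. With letter A samples only 54 had that fold change and 2 passed adjustment, as 2 did with array weights. Both letter settings rest on ARC Oil 1 and PVN Oil 1 for the Oil side. Where a region is left out, the shared and no-overlap rules ask for agreement in 2 regions only. Where samples are left out, fewer samples need to be apart. Such counts can rise for that reason alone and are not like those over all 18 samples. Leaving out PVN Oil 1 and PVN Oil 3 keeps 1 PVN Oil sample. Without the ARC the counts were 30 with a fold change of 2 or more, 1096 shared and 210 without overlap. Without the PVN they were 0 past adjustment, 723 shared and 144 without overlap, and without the NTS 28 with that fold change, 0 past adjustment, 1043 shared and 230 without overlap. Without PVN Oil 1 and PVN Oil 3 they were 0 past adjustment, 278 shared and 57 without overlap, and without ARC Oil 1, 17 genes had a fold change of 2 or more. Without 1 sample at a time there were 9 to 20 with a fold change of 2 or more, 1 to 3 past adjustment, 333 to 459 shared and 23 to 39 without overlap. The 6 settings that leave out a replicate number of a treatment in all regions were chosen after seeing the data. Without EB 1, EB 2 and EB 3 they gave 21, 18 and 28 genes with that fold change and 90, 89 and 140 without overlap. Without Oil 1, Oil 2 and Oil 3 they gave 78, 158 and 86 without overlap, with 25 past that fold change without Oil 2, and 5 past adjustment without EB 3 or Oil 2 but 0 without Oil 1 or Oil 3.

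Correlations of deviations from the group means ran between -0.114 and 0.418 for the same number in 2 regions, 8 of 18 being over 0.1, and between -0.455 and 0.126 for EB and Oil of the same number. Since not every pair was over 0.1, the main model did not take the numbers as a pairing, although single genes followed them across regions. The sample codes run through ARC, PVN and NTS of a number before the next number, with all EB codes before all Oil codes. Whether a number marks a rat was not tested. With treatment and number as a random replicate block 393 genes were shared and 1 passed adjustment, and with the number as a fixed replicate block 428 and 1. Of the single genes, 842 combinations of gene and setting no longer reached p of 0.05 and 10 changed sign. With the letter as a factor Tns1 was at -0.0175, Cish at 0.00889, Pign at -0.13, Kif18a at 0.112 and Kif20b at 0.0352. With letter A only Tns1 was at -0.00136, Pign at -0.0701, Kif18a at 0.0325 and Kif20b at 0.0844, and without the PVN Slc17a8 was at 0.00823. The causes were not tested. Low signal limits the kinetochore and spindle genes, 9 of the 18 lower ones being below background in all samples.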
